A study of Mus musculus with 55 samples.

Results

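The comparison described here is of mouse cortical and hippocampal neurons sampled 180 min after tetrodotoxin (TTX) was washed away. It sets them against control cultures that the authors describe as silenced by TTX. Its members are the 3 libraries of TTX withdrawal at 180 min (TTXw 180 min) and the 4 libraries of the silenced control (basal TTX, 0 min), 7 of the 27 libraries of the stimuli experiment and of 55 in the series, and they were chosen by their labels alone. All cultures were prepared from the cortex and hippocampus of CD1 mouse embryos of both sexes and carried no engineered allele. Their titles give 21 DIV (days in vitro), a name that the authors use for a range of ages around it. The count column of TTXw 180 min replicate 1 carries a different age and was matched by its other labels. Both groups had been held in 1 µM TTX for 48 h. The TTXw 180 min cultures then had the TTX removed by repeated exchanges of medium and were left for 180 min. The basal TTX cultures were washed in the same way, and whether the medium used on them held TTX is not stated in the sources used here. Their label is 0 min, so that TTX removal and time after the exchange of medium cannot be told apart. The comparisons drawn on below use 2 libraries at 45 min and 3 at 15 min after TTX withdrawal, and cultures that were never silenced: 3 basal libraries, 2 at 180 min in 55 mM KCl and 2 at 180 min in 50 µM bicuculline (Bic). The labels do not say that replicates came from separate cultures or preparations, so p-values measure the spread between replicate libraries, which may be technical. That spread was estimated in 1 fit over all 27 libraries of the stimuli experiment, and not from the 7 compared libraries alone.

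TTX blocks voltage-gated sodium channels and so stops action potentials. Neurons kept silent for days scale up their synaptic strength, a form of homeostatic plasticity, and removing the drug lets the network fire again. Renewed firing brings calcium into the cell and switches on immediate-early genes, which encode transcription factors such as Fos, Egr1 and the Nr4a receptors and need no new protein synthesis, followed by later genes whose products act on synapses, such as Bdnf. Regulatory DNA of such genes often carries CRE sites, bound by CREB, and AP-1 sites, bound by dimers of Fos and Jun proteins.

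Gene expression was measured by CEL-Seq2, which counts cDNA fragments from the 3′ end of transcripts. The counts on named genes ran from 1278147 to 2020393 in the TTXw 180 min libraries and from 1388876 to 2685411 in basal TTX. Levels are given as CPM, counts relative to a fixed total, with library sizes scaled by TMM, and a gene was said to have risen or fallen when edgeR's quasi-likelihood test gave a Benjamini-Hochberg adjusted p under 0.05 with a change of at least 1.5-fold. Of 12023 genes tested, 881 rose (7.33%) and 804 fell (6.69%), 1685 in all (14%). At 2-fold or more there were 410 rises and 207 falls, and at 4-fold or more 85 rises and 20 falls. The 2 groups did not overlap in CPM for 2970 genes (24.7%), 11.7% higher and 13% lower at 180 min, and 1433 (85%) of the called genes were among them. The balance of rises and falls depends on the scaling. With libraries scaled on nuclear genes of oxidative phosphorylation and ribosomal proteins instead of TMM, a choice made after seeing the data, the median log2 change of all genes moved from 0.015 to -0.13, and 536 genes rose and 1247 fell, 30.1% of calls being rises against 52.3% with TMM. The members of that scaling set did not all keep their level under TMM. All 33 ribosomal protein genes in it had positive log2 changes (median 0.33), and their sum went from 6914 to 7730 CPM to 9215 to 9593 CPM, while the 41 genes of oxidative phosphorylation had a median of -0.01 and summed to 11060 to 11948 CPM against 10576 to 12140 CPM. Which scaling is nearer to the cells' RNA was not tested.

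**Figure D1:**
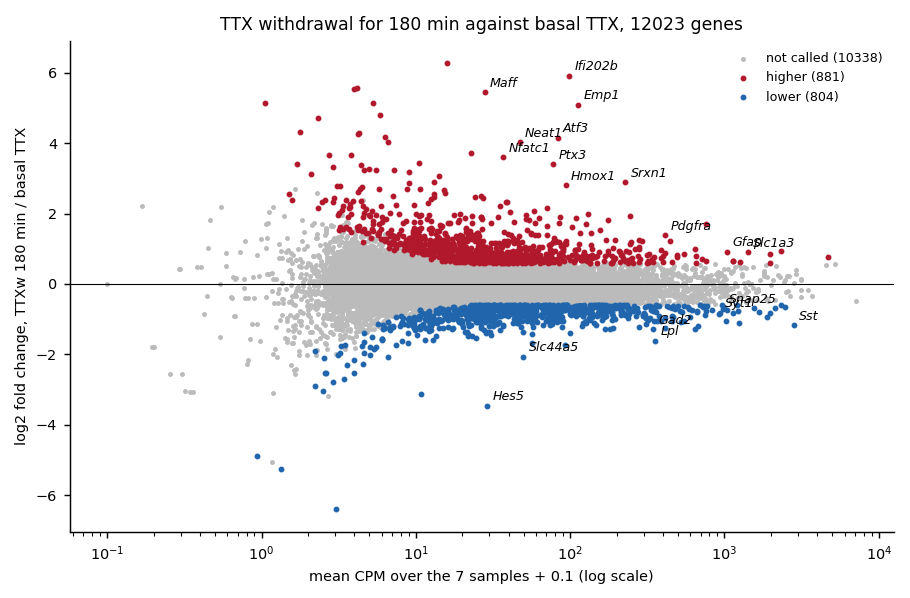
Mean level of each tested gene over the 7 libraries (horizontal axis, CPM + 0.1 on a log scale) against its change from basal TTX to TTXw 180 min (vertical axis, log2), with called genes coloured by direction. 85 genes rose at least 4-fold and 20 fell as far.

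The largest rises included Ifi202b, Emp1, Maff, Atf3 and Srxn1. Ifi202b, an interferon-inducible DNA-binding protein of the Ifi200 family, was at 1.33, 8.14, 1.43 and 3.26 CPM in basal TTX and at 254, 172 and 248 CPM in TTXw 180 min. Its groups lay far apart, and the log2 change was 5.92 (SE 0.29, adjusted p = 3.09e-18, edgeR). Ifi203 and Mndal, neighbouring genes of the same family on chromosome 1, rose by 3.73 and 3.44 on the log2 scale, and because these genes are near-identical copies in part and Mndal overlaps Ifi203, how the reads divide among them is uncertain. Emp1, an epithelial membrane protein, was at 7.32, 9.88, 5.73 and 6.51 CPM in the silenced cultures and at 261, 201 and 296 CPM after withdrawal, a log2 change of 5.09 (SE 0.27, adjusted p = 2.83e-17, edgeR). Maff, a small Maf transcription factor, went from 3.33, 1.16, 0.716 and 0.724 CPM to 45.2, 49.7 and 94.2 CPM, a log2 change of 5.45 (SE 0.39, adjusted p = 2.15e-13, edgeR). For both, each treated library was many times above each silenced one. On GRCm38, Ifi202b spans chr1:173962569-173982844, Emp1 chr6:135362550-135383173 and Maff chr15:79346621-79359078. Fosl1, which encodes the Fos family member Fra-1, had 3 counts in the 4 basal TTX libraries together and 172 in the 3 TTXw 180 min libraries, a ratio of 85.4 with an exact interval of 28.7 to 418 that covers counting error only.

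**Figure D2:**
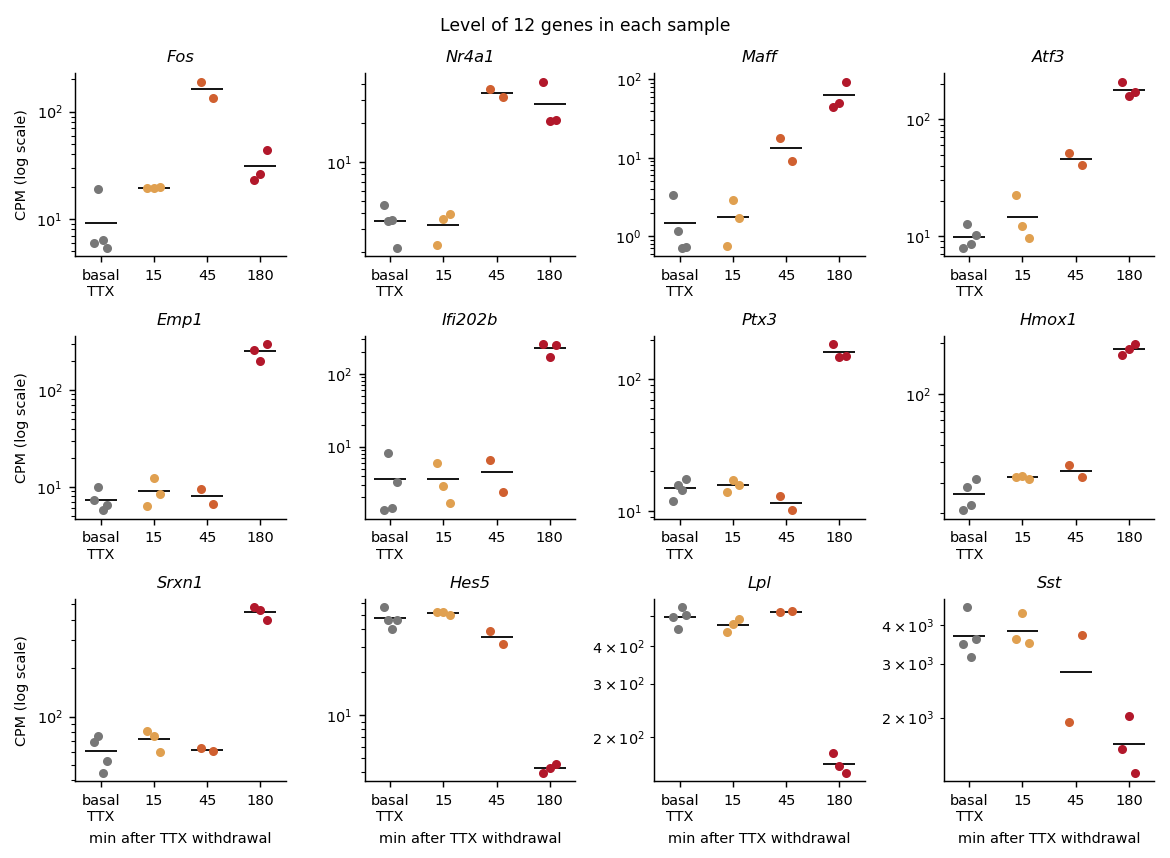
Level of selected genes in each library (vertical axis, CPM on a log scale) for basal TTX and TTX withdrawal at 15, 45 and 180 min, with a point per library and a line at each group's mean. Emp1 and Ifi202b are near their silenced level at 45 min and far above it at 180 min, whereas Fos is highest at 45 min.

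Among the other leading rises, Atf3, a stress-induced member of the ATF/CREB family, was at 7.98, 12.8, 8.59 and 10.1 CPM in basal TTX and at 211, 157 and 172 CPM in TTXw 180 min, a log2 change of 4.16 (SE 0.21, adjusted p = 3.35e-18, edgeR). Srxn1, which encodes sulfiredoxin and repairs oxidised peroxiredoxins, went from 69.9, 76.1, 44.4 and 53.2 CPM to 481, 465 and 402 CPM, a log2 change of 2.89 (SE 0.14, adjusted p = 3.36e-18, edgeR). In neither gene did the groups overlap, and the spread between replicates was small beside the change. Hmox1, the haem-degrading enzyme haem oxygenase, rose by 2.80, the long noncoding RNA Neat1 by 4.03, and the calcium-responsive transcription factor Nfatc1 by 3.61 on the log2 scale. Ptx3, a secreted pentraxin of innate immunity, rose by 3.40, from 11.98 to 17.4 CPM to 148 to 184 CPM. Nr4a1, an orphan nuclear receptor of the immediate-early set, rose by 3.06, and Cdt1, a licensing factor of DNA replication, by 2.89. All of these genes were called in each of the 7 fits that left out one library.

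Among the falls, Hes5, a Notch effector of progenitors and glia, was at 56.6, 45.9, 40.1 and 46.3 CPM in basal TTX and at 3.93, 4.26 and 4.56 CPM in TTXw 180 min, a log2 change of -3.46 (SE 0.26, adjusted p = 7.86e-13, edgeR). The treated libraries were close together and far below the silenced ones. Slc44a5, a choline transporter-like protein, was at 69.7 to 81.8 CPM against 15.1 to 21.3 CPM, with a log2 change of -2.07. Lpl, which encodes lipoprotein lipase, went from 499, 454, 537 and 506 CPM to 177, 160 and 152 CPM, a log2 change of -1.61 (SE 0.10, adjusted p = 9.53e-15, edgeR). Txnip, an inhibitor of thioredoxin and of glucose uptake, fell by 1.69. Galntl6, Strip2, Trhr (the receptor of thyrotropin-releasing hormone), Rnf150, Cbfa2t2, Spock3, Cxxc4 and Kcns2 (a silent potassium channel subunit) fell by 1.73, 1.67, 1.60, 1.58, 1.52, 1.49, 1.48 and 1.48 on the log2 scale. The change of Cxxc4 was -0.54 (adjusted p = 0.195, edgeR) when counts were summed over its transcripts. Gabbr2, a subunit of the GABA-B receptor, also fell, by 3.13, but its silenced level was spread from 3.58 to 27.9 CPM.

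Promoter sequences are shown for members in which a searched motif lies close to the start, together with that of Ifi202b, which holds no full CRE in its window. They are RefSeq sequences on GRCm38.p6, each 150 bases long, given 5′ to 3′ on the strand of the gene, and the capitals mark matches to the full CRE (TGACGTCA) or to AP-1 (TGANTCA). Cartpt (chr13:99900684-99900833, minus strand), which encodes the neuropeptide precursor CART, and Rps9 (chr7:3703891-3704040, plus strand), a ribosomal protein, hold the CRE. Emp1 (chr6:135362776-135362925, plus strand), Ifi203 (chr1:173942673-173942822, minus strand), Srxn1 (chr2:152105374-152105523, plus strand) and Bag3 (chr7:128523433-128523582, plus strand), a co-chaperone, hold AP-1 matches. The window of Ifi202b is chr1:173982845-173982994, minus strand. Each window lies before the most upstream start listed in the promoter table. For Emp1, Rps9, Cartpt and Ifi203 the annotated gene begins further upstream, so their windows lie wholly or partly inside the gene's span. These genes were picked for display after their values were known.
Cartpt: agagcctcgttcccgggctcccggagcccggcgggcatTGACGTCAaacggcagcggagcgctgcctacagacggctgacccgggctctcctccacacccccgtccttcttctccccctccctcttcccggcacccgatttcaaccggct
Rps9: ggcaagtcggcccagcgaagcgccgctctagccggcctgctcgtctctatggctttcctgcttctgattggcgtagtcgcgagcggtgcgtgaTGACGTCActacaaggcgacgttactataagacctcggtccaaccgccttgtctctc
Ifi202b: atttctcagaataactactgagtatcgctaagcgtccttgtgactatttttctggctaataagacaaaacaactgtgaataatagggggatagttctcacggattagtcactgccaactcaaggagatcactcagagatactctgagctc
Emp1: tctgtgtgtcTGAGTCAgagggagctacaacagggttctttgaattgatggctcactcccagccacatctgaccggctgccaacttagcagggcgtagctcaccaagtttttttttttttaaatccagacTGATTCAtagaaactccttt
Ifi203: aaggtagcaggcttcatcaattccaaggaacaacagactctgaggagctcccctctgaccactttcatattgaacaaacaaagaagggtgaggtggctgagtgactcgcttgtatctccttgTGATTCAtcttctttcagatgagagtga
Srxn1: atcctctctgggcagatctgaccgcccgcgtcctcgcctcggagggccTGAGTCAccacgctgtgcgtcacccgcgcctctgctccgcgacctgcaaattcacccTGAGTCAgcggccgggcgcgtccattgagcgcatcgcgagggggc
Bag3: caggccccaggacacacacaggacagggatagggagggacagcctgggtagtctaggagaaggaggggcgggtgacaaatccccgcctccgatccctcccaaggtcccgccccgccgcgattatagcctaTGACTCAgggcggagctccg

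A promoter entry was found for 9598 of the 12023 tested genes (79.8%), and windows of 250 bases before the most upstream listed start were searched on both strands. The full CRE was in 2.96% of all windows, in 3.19% of those of genes that rose and in 3.62% of those of genes that fell. AP-1 was in 3.87% of all windows (371), in 5.22% of those of risen genes (36 of 689) and in 3.29% of those of fallen genes (20 of 607). The E-box CACGTG was in 8.73%, 8.42% and 9.23%, and the EGR site GCGTGGGCG in 1.05%, 1.89% and 1.48%, in the same order. The CArG box was in 1.08%, 1.74% and 1.32%, the MEF2 site in 1.52%, 1.6% and 2.47%, the sterol element in 0.135%, 0.145% and 0.329%, and the core of the antioxidant response element, added after seeing the data, in 11.8%, 12% and 11.4%. No test was run on these shares, and a match is a description of the letters in a window and not a site of binding. Of the genes printed, Cartpt went from 2.32 to 4.34 CPM in basal TTX to 3.27, 4.73 and 25.8 CPM in TTXw 180 min, so 1 treated library carried most of its log2 change of 1.52 (adjusted p = 0.0184, edgeR), and without TTXw 180 min replicate 3 the change was 0.23 (adjusted p = 0.8). Rps9 went from 124 to 188 CPM to 234 to 264 CPM without overlap and rose by 0.72. Under the scaling set to which it belongs its change was 0.57, below the fold threshold, which is no independent check of it. Bag3 went from 3.26 to 6.97 CPM to 27.5 to 30.8 CPM and rose by 2.59.

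The lists used from here on were chosen with earlier results of these data known, so their counts are descriptions. Of the 31 immediate-early transcription factors tested, 14 rose and none fell, a share of 45.2% that rose beside 7.33% of all genes, with a median log2 change of 0.81 against 0.015 for all genes. The same 14 and 0 were counted when libraries were scaled on oxidative phosphorylation and ribosomal genes. Nr4a3, an orphan nuclear receptor, went from 28.6, 25.6, 26.5 and 34.7 CPM to 96.9, 118 and 110 CPM, a log2 change of 1.89 (SE 0.14, adjusted p = 3.36e-13, edgeR). Nr4a2 rose by 2.48, Klf4 by 3.19, Fosl2 by 1.85, Klf6 by 1.38, Egr1 by 1.46, Fosb by 1.92, Ier2 by 1.25 and the EGR corepressor Nab2 by 1.37 on the log2 scale. Fos itself was at 5.99, 19.2, 6.44 and 5.43 CPM in basal TTX and at 22.9, 26.5 and 44.04 CPM in TTXw 180 min, separate groups with a log2 change of 1.75 (SE 0.28, adjusted p = 1.33e-05, edgeR). Several factors that mark neuronal firing did not pass the test at 180 min. Npas4, a factor induced in neurons by calcium entry, was at 8.32 to 13.6 CPM against 11.4 to 15.1 CPM, with a log2 change of 0.43 (adjusted p = 0.282, edgeR). Egr4 had a log2 change of -0.02, Egr3 of 0.11 and Junb of 0.48, and Jun, at 0.57 (adjusted p = 0.000944, edgeR), missed the fold threshold. Jun passed it without TTXw 180 min replicate 2 (0.71) or without basal TTX replicate 1 or 2 (0.61 in both).

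Of 19 early genes of growth arrest and stress, 8 rose and 1 fell. Mcl1, an anti-apoptotic Bcl-2 protein, went from 54.6, 69.7, 55.8 and 51.0 CPM to 196, 246 and 238 CPM, with a log2 change of 1.98 (SE 0.15, adjusted p = 5.78e-13, edgeR), and the groups were far apart. Trib1, a pseudokinase, rose by 2.46, Gadd45b by 2.44, Gadd45g by 0.82 and Ppp1r15a, which restores translation after stress, by 1.21. Plk2, a kinase that acts on spines, fell by 0.64, a call lost without TTXw 180 min replicate 1 (-0.47), TTXw 180 min replicate 2 (-0.59) or basal TTX replicate 4 (-0.48). A fit of the 7 compared libraries with the replicate number as a block lost the calls of Gadd45b (2.21, adjusted p = 0.0525, edgeR) and Plk2 (-0.47, adjusted p = 0.164, edgeR). Of 19 genes of MAPK feedback, 5 rose and 1 fell, or 1 and 1 without TTXw 180 min replicate 3 and 3 and 1 without basal TTX replicate 3, beside 7.33% and 6.69% of all genes. Their summed level did not rise, at 982.05 to 1068.5 CPM in basal TTX and 927.5 to 1054.6 CPM in TTXw 180 min. Rgs2, a brake on G protein signalling that is in this list, went from 41.3 to 58.7 CPM to 97.2 to 148 CPM and rose by 1.18, while Dusp4 rose by 1.89 and Dusp8 fell by 0.63. The call of Dusp4 was lost without TTXw 180 min replicate 3 (1.15, adjusted p = 0.142), and that of Dusp8 without replicate 2 (-0.57). Dusp1, the immediate-early phosphatase of MAP kinases, had a log2 change of -0.02 (adjusted p = 0.973, edgeR).

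Of 29 dendritic and synaptic effectors of activity, 6 rose and 6 fell, or 6 and 2 without TTXw 180 min replicate 2. Over all genes 7.33% rose and 6.69% fell, which also stands beside the secreted factors below. Arc, which drives internalisation of AMPA receptors, was at 13.3, 14.0, 12.9 and 10.9 CPM in basal TTX and at 36, 33.6 and 33.4 CPM in TTXw 180 min, a log2 change of 1.45 (SE 0.23, adjusted p = 9.64e-06, edgeR). The groups did not overlap. Ptgs2, which encodes the prostaglandin synthase COX-2, rose by 1.97 and Tnfrsf12a, a receptor of the TNF family, by 2.67, while Mef2c, a transcription factor that restrains synapse number, fell by 0.73 (-0.49 and below the fold threshold without TTXw 180 min replicate 2). Homer1, whose short form loosens the postsynaptic scaffold, had a log2 change of -0.08 (adjusted p = 0.732, edgeR), and the counts do not separate its short and long transcripts. Of 29 secreted factors and neuropeptides, 5 rose and 9 fell, or 3 and 8 without TTXw 180 min replicate 3 or basal TTX replicate 4. Bdnf, a neurotrophin, went from 32.6, 24.99, 27.9 and 23.5 CPM to 82.5, 45.9 and 61.5 CPM, a log2 change of 1.22 (SE 0.23, adjusted p = 0.000102, edgeR), again without overlap. The falls held peptides of interneurons. Somatostatin (Sst) went from 3468, 4581, 3149 and 3605 CPM to 1581, 2025 and 1317 CPM, a log2 change of -1.17 (SE 0.15, adjusted p = 1.6e-07, edgeR), with no overlap. Neuropeptide Y (Npy) fell by 1.24 and Tac1, the precursor of substance P, by 1.01.

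Of 22 genes of the GABA synapse, 10 fell and 1 rose, beside 6.69% of all genes that fell, and 13 were below the silenced range in all treated libraries (13% of all genes). Gad2, an enzyme of GABA synthesis, went from 459, 497, 457 and 437 CPM to 191, 178 and 199 CPM, a log2 change of -1.29 (SE 0.11, adjusted p = 1.69e-11, edgeR). Its partner Gad1 fell by 0.91 and the vesicular GABA transporter Slc32a1 by 0.93. Of 36 genes of presynaptic release, 18 fell and none rose. Cplx1, a complexin that clamps vesicle fusion, went from 439, 475, 343 and 373 CPM to 196, 208 and 196 CPM, without overlap. Its log2 change was -1.03, beside -0.68 for the SNARE protein Snap25, -0.81 for Syn1, a synapsin that tethers vesicles, and -1.18 for Vamp1. Syn1 overlaps Timp1 on the other strand, and strand use in counting is not stated.

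Ion channels moved mostly downward. Of 42 potassium channel genes 16 fell and 2 rose, and of 28 sodium, calcium and HCN channel genes 10 fell and none rose, beside 6.69% of all genes that fell and 7.33% that rose. Kcnq5, a subunit of the M-current that limits firing, went from 51.2, 42.4, 57.97 and 41.6 CPM to 20.9, 20.4 and 21.3 CPM, a log2 change of -1.19 (adjusted p = 3.58e-06, edgeR). Cacna1e, the pore of R-type calcium channels, fell by 0.89. One of the 2 rises was Kcnj10, the inward rectifier of astrocytes, which went from 128 to 212 CPM to 278 to 540 CPM. Of 32 glutamate receptor genes 8 fell and 4 rose, or 5 and 2 without TTXw 180 min replicate 2, the falls including Grm7, a presynaptic metabotropic receptor, at -1.15, and Neto1, an auxiliary protein of kainate receptors, at -0.80. Of 33 postsynaptic scaffolds and kinases 6 fell and none rose, or 2 and none without basal TTX replicate 3, and of 46 axon guidance genes 8 fell and 1 rose. With the other scaling, the falls in these groups numbered 12 for GABA, 21 for presynaptic, 19 for potassium channel, 12 for sodium, calcium and HCN channel, 9 for glutamate receptor, 8 for postsynaptic and 12 for axon guidance genes, and the rises of glutamate receptor genes numbered 2.

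**Figure D3:**
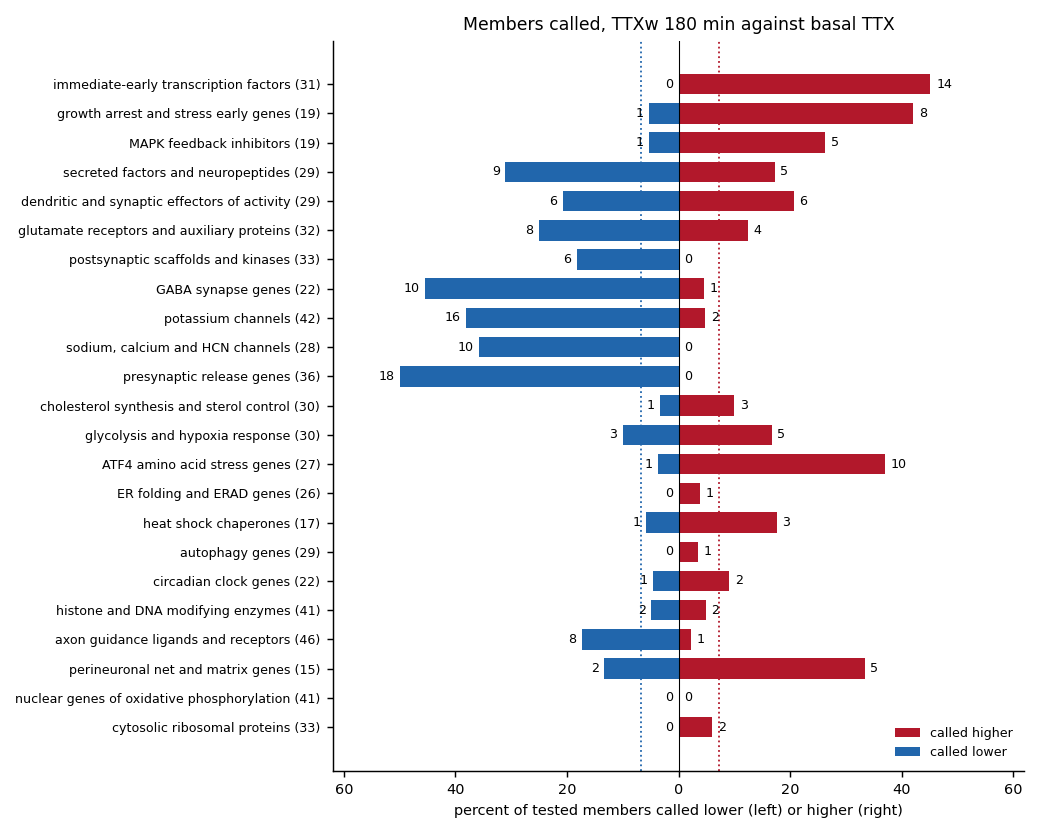
Number of tested genes that rose or fell at 180 min in each list, as a percentage of the list's tested genes (horizontal axis, rises to the right and falls to the left), with dotted lines at the shares over all tested genes (7.33% and 6.69%). The lists were chosen with earlier results of these data known. Of the early transcription factors 14 rose and none fell, and of the presynaptic genes 18 fell and none rose.

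Markers of cell types also moved, and their counts stand beside 6.69% of all genes that fell and 7.33% that rose. Of 9 markers of inhibitory neurons 7 fell, and their summed level went from 4744 to 6469 CPM in basal TTX to 2163 to 2918 CPM in TTXw 180 min. Sst, given above with the secreted factors, made up most of that sum in each of these libraries. Of 8 general neuronal markers 4 fell (5946 to 7128 CPM against 3737 to 4745 CPM), or 2 without TTXw 180 min replicate 2 and 7 without replicate 3, and of 9 markers of excitatory neurons 2 fell. Of 11 astrocyte markers 6 rose (4288 to 4916 CPM against 6501 to 8219 CPM), and of 11 markers of the oligodendrocyte lineage 7 rose (2309 to 2348 CPM against 3337 to 4143 CPM). With the other scaling 4 excitatory markers fell and 4 oligodendrocyte markers rose. Slc1a3, the astrocytic glutamate transporter GLAST, went from 931 to 1199 CPM to 1602 to 2514 CPM, and Pdgfra, a receptor of oligodendrocyte precursors, from 199 to 262 CPM to 554 to 743 CPM. Rbfox3, which encodes the neuronal nuclear protein NeuN, did not pass, at a log2 change of -0.40, but was called lower without TTXw 180 min replicate 3 (-0.61, adjusted p = 0.000994, edgeR). The glial factors Sox9, at 0.40, and Olig2, at 0.24, did not pass. Of 5 markers of dividing cells 4 rose, and their sum went from 71.6 to 91.6 CPM to 92.9, 201 and 241 CPM, the first treated library being close to the silenced ones, and 2 rose without TTXw 180 min replicate 3. Of 10 microglial markers 2 passed the filter and neither was called (1.33 to 3.58 CPM against 0.655 to 1.89 CPM), and Tmem119, Trem2 and Tyrobp were listed at 0 in the 7 libraries. Of 8 endothelial and mural markers 1 passed and rose, and Cldn5 was listed at 0. Hspa8, Rpl10a and Jund, which most cells express, were also listed at 0, so a 0 in this table does not show that a gene was not expressed. Of 6 markers of fibroblasts 2 passed, 1 rising (Pdgfra again) and 1 falling. In bulk libraries fewer cells of a type and less RNA per cell cannot be told apart, and the part of these shifts in the gene groups above was not tested.

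**Figure D4:**
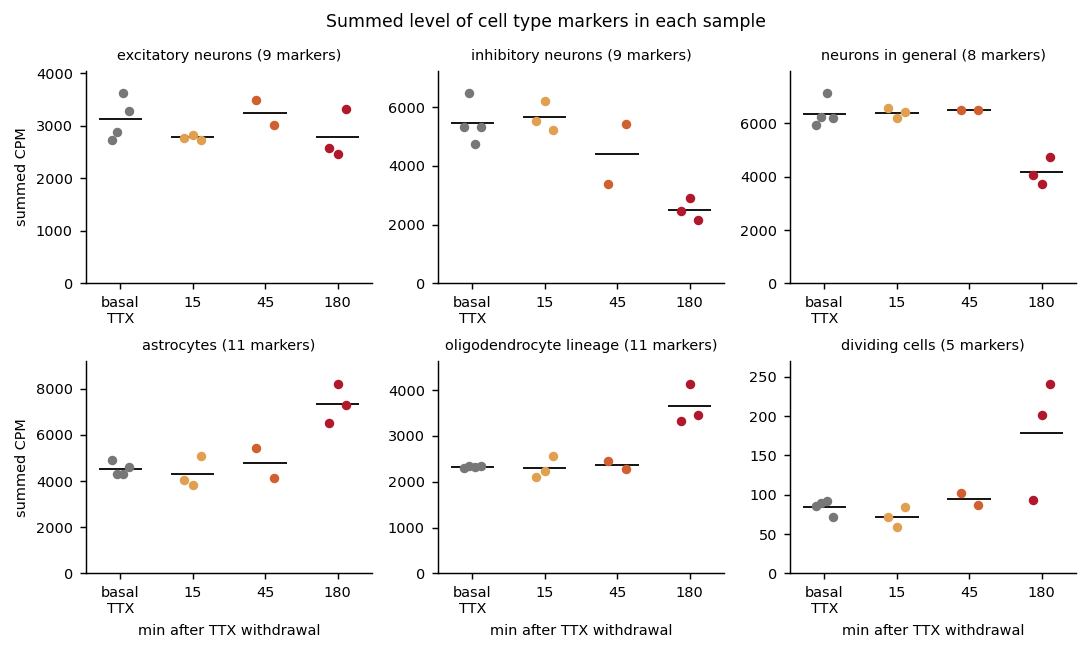
Summed level of the markers of each cell type in every library of basal TTX and of TTX withdrawal at 15, 45 and 180 min (vertical axis, CPM), with a line at each group's mean. Inhibitory and general neuronal markers are lower, and astrocyte and oligodendrocyte markers higher, in the 3 TTXw 180 min libraries than in the 4 basal TTX libraries, without overlap. Sst made up most of the inhibitory sum in these libraries.

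Groups of metabolism and protein quality moved unequally. Of 27 genes of the amino acid stress programme driven by ATF4, 10 rose and 1 fell, with 13 above the silenced range in all treated libraries (11.7% of all genes). Slc7a11, the cystine transporter xCT, went from 71.9, 67.4, 72.3 and 51.7 CPM to 239, 234 and 156 CPM, a log2 change of 1.70 (SE 0.19, adjusted p = 1.16e-08, edgeR), with no overlap. Atf4 itself rose by 0.81 and Slc3a2, the partner of Slc7a11 in transport, by 0.78. Mthfd2, a mitochondrial enzyme of folate metabolism, rose by 1.56 and Psat1, an enzyme of serine synthesis, by 0.84. Of 30 genes of glycolysis and hypoxia 5 rose and 3 fell, with Slc2a1, the glucose transporter GLUT1, up by 1.19 and Pfkfb3, which drives glycolysis, by 1.22. The 3 falls were Eno2 (-0.95), Ddit4 (-0.91) and Slc2a3 (-0.85), and the median log2 change of the list was 0.11. Of 30 genes of cholesterol synthesis 3 rose and 1 fell, or 6 and 0 without TTXw 180 min replicate 1, 5 and 0 without replicate 3 and 2 and 2 without replicate 2, with Msmo1 up by 1.21. Of 17 heat shock chaperones 3 rose and 1 fell, the fall being Hspa1b (27.9 to 47.7 CPM against 7.85, 8.05 and 31.1 CPM), in which 1 treated library lay within the silenced range and the call was lost without TTXw 180 min replicate 2 (-0.87, adjusted p = 0.0585). Among 41 histone and DNA modifying enzymes 2 rose and 2 fell, or 4 and 1 without TTXw 180 min replicate 2, with the demethylase Kdm6b up by 1.29. Of 15 genes of perineuronal nets and matrix 5 rose and 2 fell (0 without TTXw 180 min replicate 2), with the protease inhibitor Timp3 up by 0.99. Clock genes had 2 rises and 1 fall of 22, with the repressor Cry1 up by 0.81, ER folding genes 1 rise of 26 (0 without TTXw 180 min replicate 2 and 3 without basal TTX replicate 3), and none of 41 genes of oxidative phosphorylation was called. Of 29 autophagy genes 1 rose and none fell, while up to 2 fell with a library left out (without TTXw 180 min replicate 1 or basal TTX replicate 2), and with the other scaling 0 rose and 3 fell. The counts for cholesterol, histone, clock, ER and autophagy genes differ little from the 7.33% and 6.69% of all genes, and nothing is read from them. Of 33 ribosomal protein genes 2 rose, or 1 without TTXw 180 min replicate 3 or basal TTX replicate 1 or 2, but 19 lay above the silenced range in all treated libraries (11.7% of all genes).

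The course after withdrawal can be read from the earlier libraries, which are compared with the same 4 basal TTX libraries. At 15 min no gene was called (0% of 12023, edgeR), while 758 had an unadjusted p under 0.05. DESeq2 called 0 and edgeR's likelihood ratio test 9. At 45 min 46 genes were called (0.383%), of which 42 were higher (0.349%) and 4 lower (0.0333%), and 13 of the higher ones were among the 31 immediate-early factors. The number of genes was 18 without replicate 1 and 92 without replicate 3 of the 45 min libraries. Fos was at 191 and 134 CPM at 45 min, above its 22.9 to 44.04 CPM at 180 min, and the direct comparison of the later with the earlier time gave a log2 change of -2.41. Egr1 was at 180 and 163 CPM at 45 min against 46.4 to 75.9 CPM at 180 min, and Btg2, an antiproliferative early gene, at 117 and 96.7 CPM against 15.7 to 19.0 CPM, its silenced level being 15.3 to 26.2 CPM. The 31 early factors summed to 751 to 795 CPM in the silenced cultures, 1623 to 1832 CPM at 45 min and 1370 to 1809 CPM at 180 min. Between 180 and 45 min 668 genes were higher (5.56%) and 814 lower (6.77%), 1482 in all (12.3%), or 903 without replicate 1 of the 45 min libraries. Ifi202b (log2 5.69), Emp1 (4.97) and Ifi203 (4.66) were among those higher at 180 min. Fosl1 had no count at 45 min, which makes it at least 22.7-fold higher at 180 min against a floor of 3 counts per library. Hes5 (-3.01), Slc44a5 (-1.97) and Gpr158, an orphan receptor of neurons (-2.08), were lower at 180 than at 45 min.

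KCl and bicuculline at the same time were compared with unsilenced basal cultures, so the starting states differ. The handling differs too, since these drugs were added with a small replacement of conditioned medium, while withdrawal used repeated exchanges with fresh medium. The part of the handling in the differences below cannot be told apart from that of the stimulus and was not tested. KCl depolarises the membrane directly, and bicuculline blocks GABA-A receptors and so disinhibits the network. Against their own basal libraries each called 92 genes (0.765%), with 61 higher (0.507%) and 31 lower (0.258%) in KCl and 83 higher (0.69%) and 9 lower (0.0749%) in Bic, each with 2 treated libraries. Of the 31 early factors 9 were higher in KCl and 17 in Bic, beside 14 after TTX withdrawal. Their starting levels differed, with sums of 1433.5 to 1566.6 CPM in unsilenced basal and 751 to 795 CPM in basal TTX. At 180 min the sums were 2205.7 to 2328.5 CPM in KCl and 3780.5 to 4044.7 CPM in Bic. After withdrawal the sum was 1370 to 1809 CPM, a range that overlaps that of unsilenced basal. The difference between responses was tested as an interaction, called at an adjusted p under 0.05. It was called for 1001 genes against KCl (8.33%), 380 with the higher response after withdrawal (3.16%) and 621 with the lower (5.17%), and for 1178 against Bic (9.8%), 471 higher (3.92%) and 707 lower (5.88%). These numbers were 573 and 566 without KCl replicate 1 or 2, and 654 and 709 without Bic replicate 2 or 3. Fos had log2 changes of 1.75 after withdrawal, 1.39 in KCl and 2.27 in Bic, and Nr4a2 of 2.48, 2.42 and 2.09. For Fos the differences of 0.36 and -0.52 were not called. Npas4 had 0.43, 1.28 and 3.13, and Egr4 -0.02, 0.44 and 2.73, and for both the difference from Bic was called (-2.70 and -2.75). Inhba, a ligand of the TGF-β family that is induced by synaptic activity, had 0.07, 0.31 and 2.37, with a difference from Bic of -2.30.

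**Figure D5:**
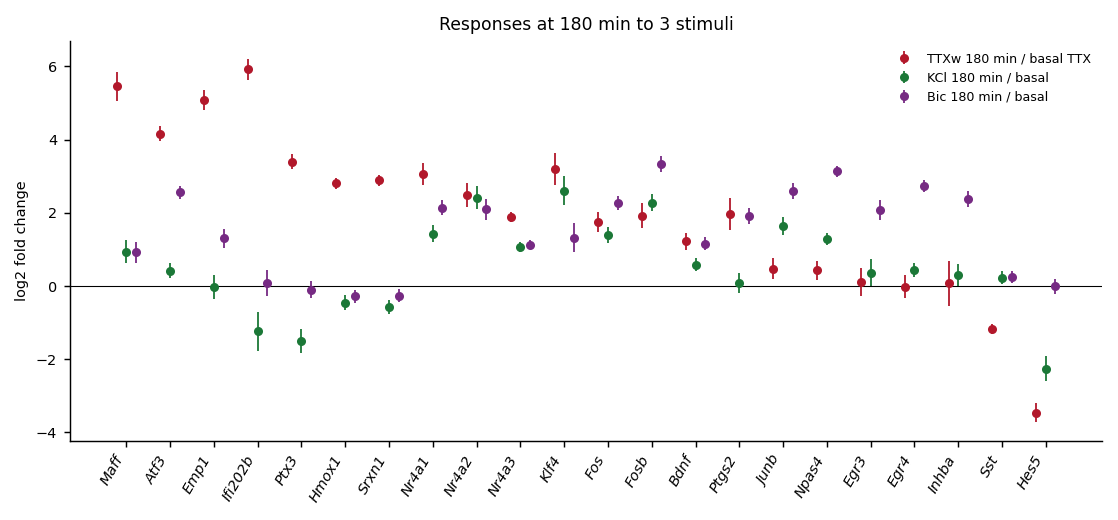
Change of selected genes at 180 min (log2, with bars of 1 SE) after TTX withdrawal against basal TTX, and in KCl and Bic against unsilenced basal cultures. Ifi202b is at 5.92 after withdrawal and 0.08 in Bic, and Npas4 at 0.43 after withdrawal and 3.13 in Bic.

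Several genes that led the rises after withdrawal had smaller or opposite values in the other stimuli. Ifi202b, Maff, Emp1 and Ptx3 were named for their large rises and their large differences, so that smaller values elsewhere follow in part from this choice. Ifi202b had log2 changes of 5.92 after withdrawal, -1.24 in KCl and 0.08 in Bic, and Maff of 5.45, 0.94 and 0.92. Emp1 had 5.09, -0.04 and 1.31, and Ptx3 3.40, -1.50 and -0.11. The differences were 7.16, 4.51, 5.13 and 4.89 against KCl and 5.83, 4.53, 3.78 and 3.51 against Bic, for Ifi202b, Maff, Emp1 and Ptx3 in this order, and all were called. Srxn1 had 2.89, -0.57 and -0.26 and Hmox1 2.80, -0.46 and -0.28, with called differences of 3.46 and 3.26 against KCl and 3.15 and 3.08 against Bic. Hes5 had -3.46, -2.26 and -0.01, so that it was also called lower in KCl, and only its difference from Bic was called. Gad2 had -1.29, 0.10 and 0.12, and of the 22 GABA synapse genes 13 had a lower response after withdrawal than in KCl and 11 than in Bic. For the 36 presynaptic genes these counts were 18 and 20. Over all genes the shares with a lower response were 5.17% against KCl and 5.88% against Bic. Astrocyte markers summed to 1807 to 2306 CPM in the unsilenced basal libraries, below the 4288 to 4916 CPM of basal TTX, and general neuronal markers to 8112 to 8832 CPM, above the 5946 to 7128 CPM of basal TTX, so that the reference cultures of the stimuli differed in these markers before any stimulus. The part of this in the differences was not tested.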

How the data were processed

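The series holds 55 CEL-Seq2 libraries, and 27 of them belong to the stimuli experiment used here. The authors aligned reads to mm10 with STAR and counted 3′ ends per transcript with the tool ESAT, and the deposited values are raw counts. Tool versions are not given in the sources used here. The protocol includes molecular identifiers of 6 bases, but whether they were collapsed is not stated, so intervals cover counting error only. Of 96722 transcripts, 78221 (80.9%) were matched to a gene by accession, and the unmatched ones held 19.3% of counts and were left out. The transcript with most counts stood for each of 28212 genes, of which 12023 passed more than 5 CPM in at least 2 libraries. Replicates differed by more than sampling noise, and groups came from GEO's labels.

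Counts were tested with edgeR 4.0.16 (quasi-likelihood, TMM, 1 fit over all groups of the stimuli experiment) in R 4.3.3. DESeq2 1.42.0 and the other alternatives are reported in the closing section. Tables and figures used Python 3.11.15 with pandas 2.3.3, scipy 1.17.1 and matplotlib 3.10.9. In data simulated for the 180 min comparison on 11598 genes, 70.2% of log2 changes of 1 and 93.8% of log2 changes of 2 were recovered, none in the wrong direction, with 6 unchanged genes called. The simulation changed far fewer genes than were called here, equally often up and down, with a spread estimated over all groups. These rates may therefore not hold for the real comparison. Genes are named as the 12 largest called rises and falls with no overlap between groups and an average log2 CPM of at least 3, the 4 largest differences per stimulus and direction, the largest called members of each list (up to 4 per direction, or 8 for rises of early factors and secreted factors) and the 4 largest called differences between 180 and 45 min per direction. Arc, Atf4, Btg2, Cplx1, Dusp1, Egr1, Egr3, Fosl2, Gad1, Gadd45g, Hspa8, Ier2, Inhba, Jun, Junb, Jund, Klf6, Mndal, Nab2, Olig2, Pdgfra, Ppp1r15a, Psat1, Rbfox3, Rpl10a, Slc1a3, Slc32a1, Slc3a2, Snap25, Sox9, Syn1 and Tac1, and the genes of the closing lists, were named after their values were seen. Members and lists were chosen with earlier results of these data known. Where TTXw 15, 45 and 180 min share the basal TTX libraries, no overlap between them is given as a result.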

Additional observations from a re-analysis of the deposited data

Results flagged for a closer look

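Results listed here stand out in a group of replicates or differ between stimuli or times, and no explanation was weighed. In basal TTX, 10 of 182 genes examined (5.49%) had 1 of the 4 libraries far from the others by Dixon's criterion, which chance gives in about 1 in 20 groups. In replicate 2 these were Adm at 3.487 CPM, Cdt1 at 1.743 CPM and Grin2c at 6.392 CPM, all low, and Fos at 19.18 CPM, high. In replicate 3 Hes1 at 20.76 CPM and Mef2c at 1397 CPM were high, and Junb at 11.45 CPM and Timp1 at 0 CPM low. In replicate 4 Ccl7 at 0.3618 CPM was high and Pdgfra at 199 CPM low.

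The response to TTX withdrawal at 180 min differed from that to KCl in the interaction test for Ifi202b (log2 difference 7.1578), Emp1 (5.1250), Ptx3 (4.8939) and Maff (4.5122), which were higher after withdrawal. It was lower for Gabbr2 (-4.4228), the heat shock protein gene Hspa1b (-2.8929), the ubiquitin ligase gene Mylip (-2.6670) and the transcription factor gene Sp9 (-2.3184). Against Bic it was higher for Ifi202b (5.8311), Maff (4.5290), Emp1 (3.7820) and Ptx3 (3.5051), and lower for Hes5 (-3.4554), Gabbr2 (-3.4244), Egr4 (-2.7477) and Npas4 (-2.7013). The levels at 180 min were above those at 45 min for Ifi202b (5.6949), Emp1 (4.9698), Ifi203 (4.6629) and Fosl1 (at least 4.5048 against 3 counts per library). They were below them for Hes5 (-3.0146), Fos (-2.4069), Gpr158 (-2.0785) and Slc44a5 (-1.9677).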

How the results depend on the processing

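The 1685 genes called at 180 min became 1811 with edgeR's likelihood ratio test, 1487 with DESeq2, 1581 with no filter on low counts, 1783 with the scaling on oxidative phosphorylation and ribosomal genes, and 1349 (without TTXw 180 min replicate 2) to 1637 when single libraries were left out. With the spread estimated from the 7 compared libraries only, 1472 genes were called, and 1531 from the 12 libraries of basal TTX and TTX withdrawal. At 45 min the 46 genes became 74 with the likelihood ratio test, 104 with no filter, 29 with counts summed over transcripts and 18 to 92 with a library left out. At 15 min the 0 genes became 9, 10 and 0 to 1 with the likelihood ratio test, no filter and a library left out. The comparison of 180 with 45 min gave 903 to 1480 genes with a library left out, the difference from KCl 566 to 1036, and that from Bic 654 to 1148, or 743 when libraries were thinned to the smallest. The deviations of same-numbered libraries correlated at 0.090, 0.051 and 0.085, and each TTXw 180 min library correlated best with its own number. Whether a shared replicate number marks paired samples was not tested. With the replicate number as a block, 1402 genes were called at 180 min. Of 166 named genes called, 121 were called in every alternative of up to 18, 129 of 2972 values lost the call and 0 reversed, and 151 were called with the block. Genes at a few CPM rest on single counts, so their changes are less certain than those of deeper genes.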

Other observations

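Lists put together after the values had been seen describe other groups, and their counts are descriptions that say nothing independent of that choice. Of 18 genes of reactive astrocytes tested, 15 rose at 180 min, beside 7.33% of all genes. Their summed level went from 1051 to 1654 CPM in basal TTX to 2952 to 3516 CPM. Vim, an intermediate filament of glia, went from 106, 106, 54.4 and 77.4 CPM to 255, 258 and 238 CPM, a log2 change of 1.54 (SE 0.16, adjusted p = 3.39e-09, edgeR). Cd44, the receptor of hyaluronan, went from 95.1, 136, 79.4 and 133 CPM to 405, 459 and 408 CPM, a log2 change of 1.92, and the groups of both genes lay apart. Nes, the filament nestin, rose by 2.17, Anxa2, an annexin, by 2.03 and Stat3, a transcription factor of cytokine signalling, by 0.78. At 45 min Vim was at 76.0 and 94.8 CPM and Cd44 at 71.9 and 112 CPM, within the silenced range or just below it, and none of the 18 genes was called.

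Of 15 antioxidant genes 8 rose, 7 with the scaling on oxidative phosphorylation and ribosomal genes, where Me1 was lost. The counts in this paragraph stand beside 7.33% of all genes that rose and 6.69% that fell. Txnrd1, thioredoxin reductase, went from 53.9, 80.2, 62.3 and 68.7 CPM to 154, 195 and 197 CPM, a log2 change of 1.45 (SE 0.14, adjusted p = 2.55e-10, edgeR). Osgin1 rose by 2.87, Gclc and Gclm, the subunits of the enzyme that limits glutathione synthesis, by 1.24 and 0.94, and Me1, malic enzyme, by 0.69. No member was called at 45 min or in KCl or Bic at 180 min. Of 10 chemokine and cytokine genes 6 rose. Ccl2, a chemokine for monocytes, had 2 counts in basal TTX and 55 in TTXw 180 min, a ratio of 40.96 (exact 95% interval 10.8 to 347, counting error only), and Csf1, the growth factor of microglia, rose by 1.56. Of 14 interferon-stimulated genes 4 rose, and 3 of these, Ifi202b, Ifi203 and Mndal, belong to the Ifi200 family. The fourth, Ifitm3, rose by 0.96, a call lost without TTXw 180 min replicate 3 (0.52, adjusted p = 0.267) and without basal TTX replicate 1 (0.83, adjusted p = 0.0523). Of 11 genes of the Notch pathway Hes5 was the 1 called at 180 min, while Hes1 was at 47.1 and 33.2 CPM at 45 min against 11.3 to 20.8 CPM in basal TTX and 11.8 to 22.8 CPM at 180 min.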
